A study of Mus musculus with 4 samples.

Results

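The mRNAs described here come from 5 genes of the actin cytoskeleton: Actb, Dstn, Tpm1, Tmod3 and Iqgap1. They were chosen by measured values, namely many called positions, or positions high in the list, in Musashi-1 (Msi1) CLIP-seq after Msi1 induction. In CLIP-seq, ultraviolet light crosslinks a protein to RNA in contact with it, an antibody recovers the complexes and the RNA fragments they carry are sequenced. A peak is a stretch that the authors called from those fragments. Each gene was represented by a fixed window of the mouse build mm9, and every deposited peak that overlapped the window by at least 1 bp was taken, on the gene's strand or on the opposite one. The gene-strand peaks of the 5 windows numbered 112 among 240811 peaks of 4 lists.

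All 4 libraries were Msi1 immunoprecipitations from mouse intestinal epithelial cells, 2 TRE-Msi1 and 2 wild-type. TRE-Msi1 mice carry an Msi1 transgene that doxycycline switches on, and their total epithelium was taken after 24 h of doxycycline. Wild-type mice had no doxycycline, and their crypts were taken. Transgene, drug and the cells taken therefore changed together and cannot be told apart. The labels give neither the transactivator behind the transgene nor the age or sex of the animals, and none of the libraries is an input or a control immunoprecipitation. The epithelial label could not be checked against marker genes, since a peak list holds no expression levels.

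Actin filaments give epithelial cells their shape, their junctions and the core of the brush border microvilli. Actb encodes beta-actin, the filament subunit. Dstn encodes destrin (actin depolymerising factor), which severs filaments and removes subunits. Tpm1 encodes tropomyosin 1, a coiled coil that lies along the filament. Tmod3 encodes tropomodulin 3, which caps the slow-growing filament end and binds tropomyosin. Iqgap1 encodes a scaffold that binds filaments, calmodulin and the small GTPases Cdc42 and Rac1. Msi1 is known for binding short UAG-containing elements, often in 3′ UTRs, and for controlling the translation or stability of the bound mRNA. No genome of the build mm9 was used here, so the bases under the peaks were not examined.

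The lists differ in form, which bears on every count below. TRE-Msi1 replicate 1 held 189594 peaks of 40 bp (median width), of which 70.8% lay on the plus strand. The other 3 lists had median widths of 74 to 75 bp and 50.9 to 51.5% plus-strand peaks, with 40776 peaks in TRE-Msi1 replicate 2 and 4863 and 5578 in wild-type replicates 1 and 2. No source used here gives read numbers, so the sequencing depth is unknown, and the levels of the mRNAs were not measured in these libraries. In such bulk samples, fewer cells of a type and less RNA per cell cannot be told apart. The place of a peak in its list is given below as a top percentage by the authors' score, with ties in file order. All scores of wild-type replicate 1 are 0, so file order stood in for the score there. Identical intervals were sometimes listed more than once: 6 gene-strand entries of TRE-Msi1 replicate 2 and 1 of wild-type replicate 1 repeat another entry.

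Summed over the 5 windows (215.8 kb), gene-strand peaks numbered 52 and 40 in TRE-Msi1 replicates 1 and 2 and 11 and 9 in wild-type replicates 1 and 2. Both induced libraries lay above both wild-type libraries, whose lists were also shorter. How many other genes separate the groups like this, or like the single genes below, was not counted. On the scale log2(count + 1) the mean was 5.54 ± 0.26 in TRE-Msi1 and 3.45 ± 0.19 in wild-type libraries (SD, n = 2 each), a difference of 2.09, or 1.90 without TRE-Msi1 replicate 1. The genes were selected on these counts, so no test is given. Relative to the length of each list the order was the opposite one. The windows held 2.74 and 9.81 of every 10000 listed peaks in TRE-Msi1 replicates 1 and 2, against 22.6 and 16.1 in wild-type replicates 1 and 2. With every list cut to its 4863 highest-ranked peaks, the counts were 5 and 9 in the TRE-Msi1 libraries and 11 and 8 in the wild-type libraries, a difference of -0.42 on the log2 scale.

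**Figure D1:**
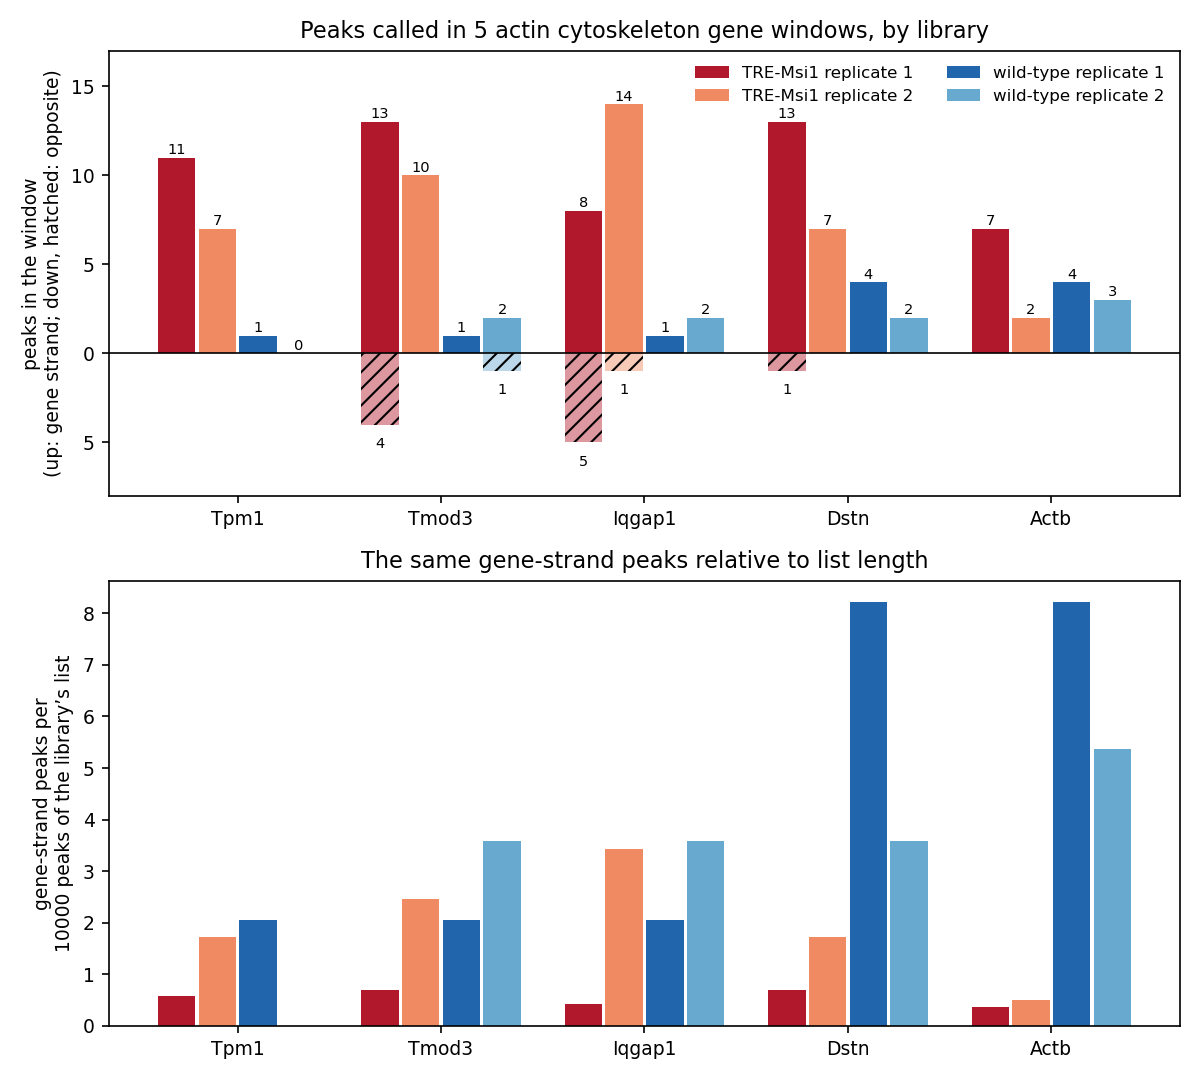
Number of peaks in each gene window by library (upper panel, gene strand upward and opposite strand downward, hatched) and gene-strand peaks per 10000 peaks of the library's list (lower panel). TRE-Msi1 bars stand left of wild-type bars; Tpm1, Tmod3, Iqgap1 and Dstn had more peaks in both TRE-Msi1 libraries, Actb did not, and relative to list length TRE-Msi1 replicate 1 was lowest for every gene except Tpm1, where wild-type replicate 2 had 0.

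The opposite strand of the same windows served as background and was nearly empty outside TRE-Msi1 replicate 1. It held 10 and 1 peaks in TRE-Msi1 replicates 1 and 2, against 0 and 1 in wild-type replicates 1 and 2. The groups overlapped (p = 0.667 by exact permutation of the 4 libraries, two-sided, where 2 against 2 cannot go below 0.333). On the log2(count + 1) scale the difference was 1.73, and 0.50 without TRE-Msi1 replicate 1. At the average density of each library's own list on that strand, the windows would have held 9.94 and 1.69 opposite-strand peaks in TRE-Msi1 replicates 1 and 2 and 0.202 and 0.230 in the wild-type lists. The observed 10 in TRE-Msi1 replicate 1 is thus at the level of the whole list. On the gene strand the same densities give 5.30 and 1.64 peaks in TRE-Msi1 replicates 1 and 2 and 0.193 and 0.224 in wild-type replicates 1 and 2, which the observed counts exceeded by 9.81-fold, 24.3-fold, 56.9-fold and 40.1-fold. These folds describe genes that were picked for many peaks, and average density includes untranscribed genome. Within 2 kb of the 3′ edge of a window no library had a single opposite-strand peak. These ends make up 4.63% of the window length, and with so few opposite-strand peaks nothing is read from their absence there. The windows of Tpm1 and Actb had no opposite-strand peak at all.

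Per kilobase of window, introns included, Actb carried the densest peaks in every library. It had 1.84 and 0.526 gene-strand peaks per kb in TRE-Msi1 replicates 1 and 2 and 1.05 and 0.789 in wild-type replicates 1 and 2. Dstn followed in 3 of the libraries, at 0.448 per kb in TRE-Msi1 replicate 1 and 0.138 and 0.0690 in wild-type replicates 1 and 2, while in TRE-Msi1 replicate 2 it stood at 0.241, beside 0.255 for Tpm1. Tpm1 had 0.400 per kb in TRE-Msi1 replicate 1. Tmod3 reached 0.206 and 0.159 per kb and Iqgap1 0.0865 and 0.151 in TRE-Msi1 replicates 1 and 2. The lengths of the mature mRNAs were not used, so peaks per exonic base were not compared.

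Actb, the filament subunit, was the gene whose count did not separate the groups. Its 3.8 kb window (chr5:143664700-143668500, minus strand) held 7 and 2 peaks in TRE-Msi1 replicates 1 and 2, against 4 and 3 in wild-type replicates 1 and 2. The mean log2(count + 1) was 2.29 ± 1.00 in TRE-Msi1 and 2.16 ± 0.23 in wild-type libraries (SD, n = 2 each), a difference of 0.13 that lies within the spread between replicates. It was -0.58 without TRE-Msi1 replicate 1, which alone placed the induced mean above the wild-type mean, and -0.03 without wild-type replicate 2. Actb has a close paralogue, Actg1, and many processed pseudogenes, and no source used here says how reads with several matches were treated, so its peaks are uncertain.

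Actb also held the only position of the 5 genes to which all 4 libraries contributed, a chain of overlapping peaks at 143665350 to 143665525 on chromosome 5, 650 bp from the 3′ edge. The TRE-Msi1 peaks in it did not overlap each other but each overlapped the wild-type replicate 1 peak. There the top percentage was 4.19% and 10.8% in TRE-Msi1 replicates 1 and 2 and 8.57% and 4.28% in wild-type replicates 1 and 2. Each of these was that library's first-placed Actb peak, in wild-type replicate 1 by file order only. The wild-type libraries shared a second Actb position, 143664764 to 143664904, that neither TRE-Msi1 library had. The nearest TRE-Msi1 peaks lay 174 bp (replicate 1) and 446 bp (replicate 2) away. The TRE-Msi1 libraries shared a different second position, 143666991 to 143667095, at top 32.5% in replicate 1 and top 46.9% in replicate 2.

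Dstn, the filament-severing factor, carried the highest-ranked peaks of the 5 genes in both TRE-Msi1 libraries. In wild-type replicate 2 an Actb peak ranked first. Dstn peaks came first in wild-type replicate 1 only by file order, since all scores there are 0. Its 29 kb window (chr2:143741000-143770000, plus strand) held 13 and 7 peaks in TRE-Msi1 replicates 1 and 2, against 4 and 2 in wild-type replicates 1 and 2. Both induced libraries exceeded both wild-type libraries, whose lists were shorter, and the share of all genes that do so was not counted. The difference of log2(count + 1) was 1.45, from means of 3.40 ± 0.57 in TRE-Msi1 and 1.95 ± 0.52 in wild-type libraries (SD, n = 2 each). With lists cut to the shortest length it was 0.13, and the groups overlapped, at 5 and 2 peaks in TRE-Msi1 replicates 1 and 2 against 4 and 2 in wild-type replicates 1 and 2. Most of its peaks lay between 143767958 and 143769044, a stretch of 1.09 kb that held 8 of 13 peaks in TRE-Msi1 replicate 1 and 3 of 7 in TRE-Msi1 replicate 2, against 3 of 4 and 1 of 2 in wild-type replicates 1 and 2.

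Within this Dstn stretch, every entry of TRE-Msi1 replicate 2 and of the wild-type libraries overlapped a peak of another library, whereas TRE-Msi1 replicate 1 also had peaks of its own. In TRE-Msi1 replicate 2 the peaks at 143768311 to 143768385 and 143767991 to 143768065 stood in the top 0.81% and 1.00% of the list, with the authors' scores of 36 and 33, and each overlapped a TRE-Msi1 replicate 1 peak. The highest-ranked TRE-Msi1 replicate 1 peak there stood in the top 1.39%. Between these positions, at 143768138 to 143768277, lay a wild-type position called in both wild-type libraries. Its place was top 2.55% in replicate 1, by file order only, and top 33.7% in replicate 2. This wild-type position overlapped no TRE-Msi1 peak, although the nearest ones were 33 bp away in TRE-Msi1 replicate 1 and 34 bp away in TRE-Msi1 replicate 2. At 143768603 to 143768727 a wild-type replicate 1 peak overlapped a peak of each TRE-Msi1 library. The places were top 5.91% in TRE-Msi1 replicate 1, top 37.6% in TRE-Msi1 replicate 2 and, by file order, top 13.4% in wild-type replicate 1. Away from the stretch no peaks of different libraries overlapped: TRE-Msi1 replicate 2 had 4 peaks at 15.9 to 20.6 kb from the 3′ edge and TRE-Msi1 replicate 1 had 5 peaks at 4.25 to 25.7 kb. The TRE-Msi1 replicate 1 peak nearest the 3′ edge among these stood 3 bp from a wild-type replicate 1 peak.

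**Figure D2:**
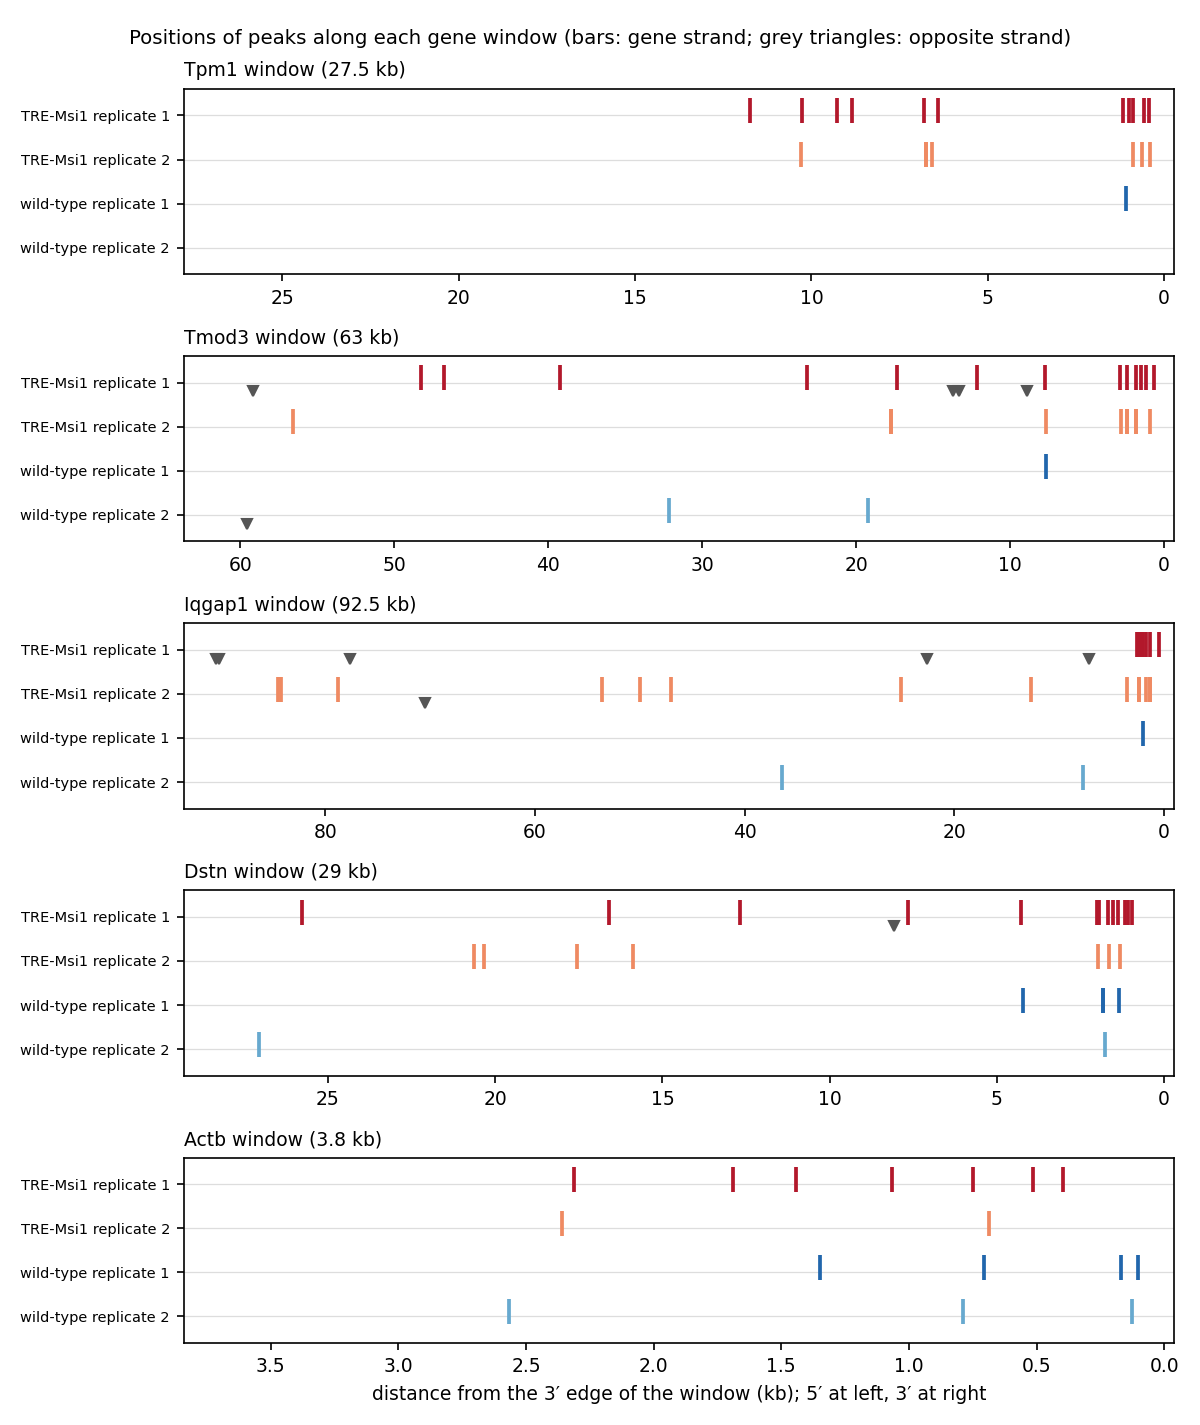
Positions of all peaks along each window, with the 5′ edge at left and the 3′ edge (0 kb) at right and one row per library, TRE-Msi1 above wild-type. Coloured bars are gene-strand peaks and grey triangles opposite-strand peaks. Gene-strand peaks crowd at the right end in the TRE-Msi1 libraries. The 12 opposite-strand peaks lie elsewhere but are too few for a contrast.

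Tpm1, the tropomyosin gene, was nearly bare in the wild-type lists. Its 27.5 kb window (chr9:66870000-66897500, minus strand) held 11 and 7 peaks in TRE-Msi1 replicates 1 and 2, against 1 and 0 in wild-type replicates 1 and 2. The groups did not overlap, but the wild-type lists were shorter and the share of all genes separated like this was not counted. The difference of log2(count + 1) was 2.79, from means of 3.29 ± 0.41 in TRE-Msi1 and 0.50 ± 0.71 in wild-type libraries (SD, n = 2 each). In lists of the shortest length the separation was lost, with 0 and 1 peaks in TRE-Msi1 replicates 1 and 2, against 1 and 0 in wild-type replicates 1 and 2. No opposite-strand peak was called in any library. The peaks fell into 2 clusters and the upstream part of the window was empty. Within 2 kb of the 3′ edge lay 5 peaks of TRE-Msi1 replicate 1 and 3 of TRE-Msi1 replicate 2, and the remaining 6 and 4 peaks lay at 6.39 to 11.7 kb and 6.54 to 10.3 kb.

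The TRE-Msi1 libraries met at 5 positions of Tpm1, and 6 of the 7 replicate 2 entries overlapped a replicate 1 peak. The highest-ranked was at 66870849 to 66870923, at top 9.62% in TRE-Msi1 replicate 1 and top 4.42% in TRE-Msi1 replicate 2. Positions at 66870355 to 66870438 and 66870565 to 66870668 completed the 3′ cluster. Those at 66876713 to 66876819 and 66880259 to 66880346 belonged to the inner cluster, where TRE-Msi1 replicate 2 ranked the last at top 13.6% and replicate 1 at top 41.6%. The single wild-type peak, 66871054 to 66871127 in replicate 1, stood in the top 23.0% of its list by file order and overlapped none of them. It lay 34 bp from a TRE-Msi1 replicate 1 peak and 131 bp from a TRE-Msi1 replicate 2 peak.

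Tmod3, the filament-end cap, had peaks in a 3′ cluster and scattered over the rest of its 63 kb window (chr9:75345000-75408000, minus strand). There were 13 and 10 gene-strand peaks in TRE-Msi1 replicates 1 and 2, against 1 and 2 in wild-type replicates 1 and 2. The groups did not overlap, with the share of all genes that do likewise not counted. The difference of log2(count + 1) was 2.34, from means of 3.63 ± 0.25 in TRE-Msi1 and 1.29 ± 0.41 in wild-type libraries (SD, n = 2 each). In lists of the shortest length the direction turned (-0.50), with 0 and 2 peaks in TRE-Msi1 replicates 1 and 2, against 1 and 2 in wild-type replicates 1 and 2. Opposite-strand peaks numbered 4 and 0 in TRE-Msi1 replicates 1 and 2 and 0 and 1 in wild-type replicates 1 and 2. Of the 10 entries of TRE-Msi1 replicate 2, 3 repeat another interval, which leaves 7 distinct ones.

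Within 3 kb of the 3′ edge Tmod3 had 6 peaks in TRE-Msi1 replicate 1, 6 entries (4 distinct intervals) in TRE-Msi1 replicate 2 and 0 in both wild-type libraries. The induced libraries coincided there at 75346789 to 75346863, 75347352 to 75347464 and 75347788 to 75347899. The last of these ranked highest, at top 5.09% in TRE-Msi1 replicate 2 and top 33.8% in TRE-Msi1 replicate 1. Further upstream they met once, at 75352636 to 75352741, 7.64 kb from the 3′ edge. Wild-type replicate 1 had its only Tmod3 peak there, at top 38.9% by file order. The 2 peaks of wild-type replicate 2 lay at 19.2 and 32.1 kb, with the nearest TRE-Msi1 peaks 1418 bp and 6985 bp away.

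On Iqgap1, the scaffold gene, the TRE-Msi1 libraries differed in where the peaks lay. Its 92.5 kb window (chr7:87856000-87948500, minus strand) held 8 and 14 gene-strand peaks in TRE-Msi1 replicates 1 and 2, against 1 and 2 in wild-type replicates 1 and 2. Again the groups did not overlap, and the share of all genes like this was not counted. The difference of log2(count + 1) was 2.25, from means of 3.54 ± 0.52 in TRE-Msi1 and 1.29 ± 0.41 in wild-type libraries (SD, n = 2 each). Cut to the shortest length, the lists held 0 and 3 Iqgap1 peaks in TRE-Msi1 replicates 1 and 2, against 1 and 1 in wild-type replicates 1 and 2, and the groups overlapped. In TRE-Msi1 replicate 1 all 8 peaks lay between 87856504 and 87858628, a stretch of 2.13 kb at the 3′ end. In TRE-Msi1 replicate 2 that stretch held 5 entries (3 distinct intervals) and the other 9 were spread from 3.54 to 84.5 kb upstream of the edge. Opposite-strand peaks numbered 5 and 1 in TRE-Msi1 replicates 1 and 2 and 0 in both wild-type libraries.

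The 3 Iqgap1 positions found in both TRE-Msi1 libraries were 87857339 to 87857418, 87857718 to 87857795 and 87858317 to 87858394, and the last ranked highest in TRE-Msi1 replicate 2 (top 11.0%, and top 33.1% in replicate 1). Yet the best-ranked Iqgap1 peaks of TRE-Msi1 replicate 2 were unshared ones at 12.7 and 25.1 kb, each scored 15 (top 6.11% and 6.66%). The wild-type replicate 1 peak, 87858003 to 87858076, overlapped TRE-Msi1 replicate 1 and lay 208 bp from the nearest TRE-Msi1 replicate 2 peak. The wild-type replicate 2 peaks, at 7.71 and 36.4 kb, were 4100 and 10518 bp from the nearest TRE-Msi1 peak and stood in the top 65.1% and 87.8% of their list.

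Many peaks of the 4 longer genes lay at the 3′ end of the windows, although only 1 in wild-type replicate 2. Their part of the mature mRNAs was not measured, so no concentration along the mRNA is read from the shares below. The last 2 kb make up 3.77% of the genomic length of these windows, introns included. They held 20 of 45 gene-strand peaks (44.4%) in TRE-Msi1 replicate 1 and 12 of 38 (31.6%) in TRE-Msi1 replicate 2, against 4 of 7 (57.1%) and 1 of 6 (16.7%) in wild-type replicates 1 and 2. The mean share was 38.0 ± 9.10% in TRE-Msi1 and 36.9 ± 28.6% in wild-type libraries (SD, n = 2 each). The groups overlapped (p = 1 by two-sided exact permutation). Few wild-type peaks stand behind this, and the direction depends on single libraries: the difference was -5.33 percentage points without TRE-Msi1 replicate 1, -19.1 without wild-type replicate 2 and 21.3 without wild-type replicate 1. Within 1 kb of the edge these 4 windows held 7 and 4 peaks in TRE-Msi1 replicates 1 and 2 and 0 in both wild-type libraries. For the share of peaks there the exact test gave p = 0.333, the smallest it allows, and other distances were also tried. Actb, outside these 4 windows, did have wild-type peaks within 1 kb. They lay at 64, 131 and 670 bp in wild-type replicate 1 and at 89 and 751 bp in wild-type replicate 2. Its TRE-Msi1 peaks there lay at 378, 492 and 727 bp in replicate 1 and at 650 bp in replicate 2. The window edges are rounded coordinates, so distances are to the edge and not to an annotated transcript end. Exons and UTRs are not assigned.

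**Figure D3:**
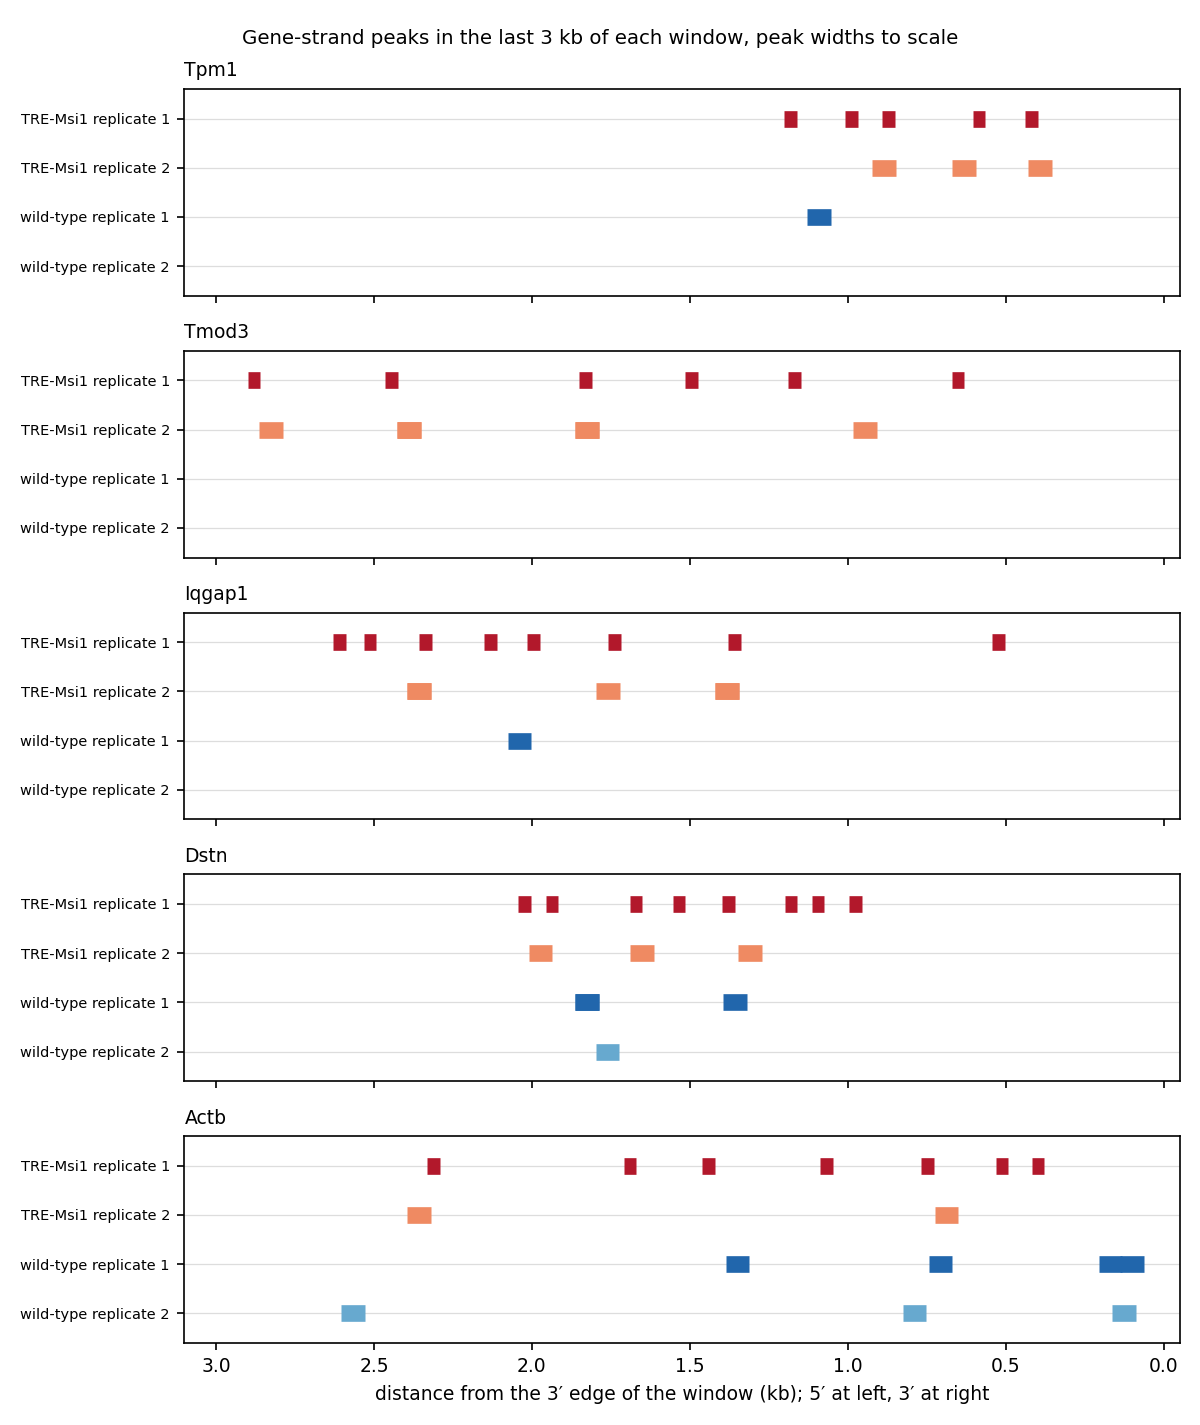
Gene-strand peaks in the last 3 kb of each window, drawn to scale with the 3′ edge at right and TRE-Msi1 rows above wild-type rows. The 3 distinct TRE-Msi1 replicate 2 peaks of Tpm1 and of Iqgap1 each sit on a TRE-Msi1 replicate 1 peak, of the wild-type Dstn positions one lies between TRE-Msi1 peaks and the other overlaps peaks of both TRE-Msi1 libraries, and Tmod3 has no wild-type peak.

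Positions found in both TRE-Msi1 libraries were among the reasons for choosing these mRNAs. Of the 40 replicate 2 entries, 20 (50.0%, 95% Wilson interval 35.2 to 64.8%) overlapped one of replicate 1, beside 5.67% of the whole replicate 2 list. This share was 10.0% when at least 50% of both peaks had to overlap, 26.7% in the top 25% of the lists and 22.2% in lists of the shortest length. The first setting is strict. With median widths of 40 bp in replicate 1 and 75 bp in replicate 2, nearly all of the narrower peak must lie inside the wider. Of the 52 replicate 1 peaks, 16 (30.8%, 19.9 to 44.3%) overlapped a replicate 2 peak, beside 1.18% of that list. Because sharing helped to choose the genes, nothing is read from the contrast with the list, and the intervals cover only counting error, as if peaks were independent. By gene, the shared part of the replicate 2 entries was 6 of 7 for Tpm1, 6 of 10 for Tmod3, 5 of 14 for Iqgap1, 2 of 7 for Dstn by direct overlap and 1 of 2 for Actb.

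Among the 4 longer genes, a larger part of the entries near the 3′ edge than of those farther away was shared. Sharing helped to choose the genes, so this difference is a description and was not tested. In TRE-Msi1 replicate 2, 10 of the 12 entries within 2 kb overlapped a replicate 1 peak (83.3%, 55.2 to 95.3%), against 9 of the 26 farther away (34.6%, 19.4 to 53.8%). With identical intervals counted once, these were 8 of 10 and 6 of 22. Read from TRE-Msi1 replicate 1, the shares were 8 of 20 within 2 kb (40.0%, 21.9 to 61.3%) and 7 of 25 beyond (28.0%, 14.3 to 47.6%). Its peaks were denser near the edge, as those 20 lay in 3.77% of the window length, introns included. Shares at matched density were not computed. In that library 8 of the 20 peaks within 2 kb stood in the top 10% of the list, 7 of them in Dstn and 1 in Tpm1, against 2 of the 25 farther away, both in Dstn. Tmod3 and Iqgap1 each had 4 peaks within 2 kb in TRE-Msi1 replicate 1. Their median percentiles there were 40.2 within and 47.7 beyond 2 kb for Tmod3 and 43.6 and 57.9 for Iqgap1. Yet the best-ranked Iqgap1 peaks of that library, at 1.718 and 1.975 kb (both top 27.2%), lay within 2 kb. In TRE-Msi1 replicate 2 the medians were 27.4 within and 48.3 beyond for Tmod3 and 58.4 and 58.4 for Iqgap1, with repeated intervals counted each time. The near Tmod3 median rests on 3 entries, at percentiles 27.4, 88.6 and 15.8. The last 2 are the same interval listed again, so no direction is read from this Tmod3 contrast. In TRE-Msi1 replicate 2, 3 of 12 near and 3 of 26 far entries were in the top 10%.

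**Figure D4:**
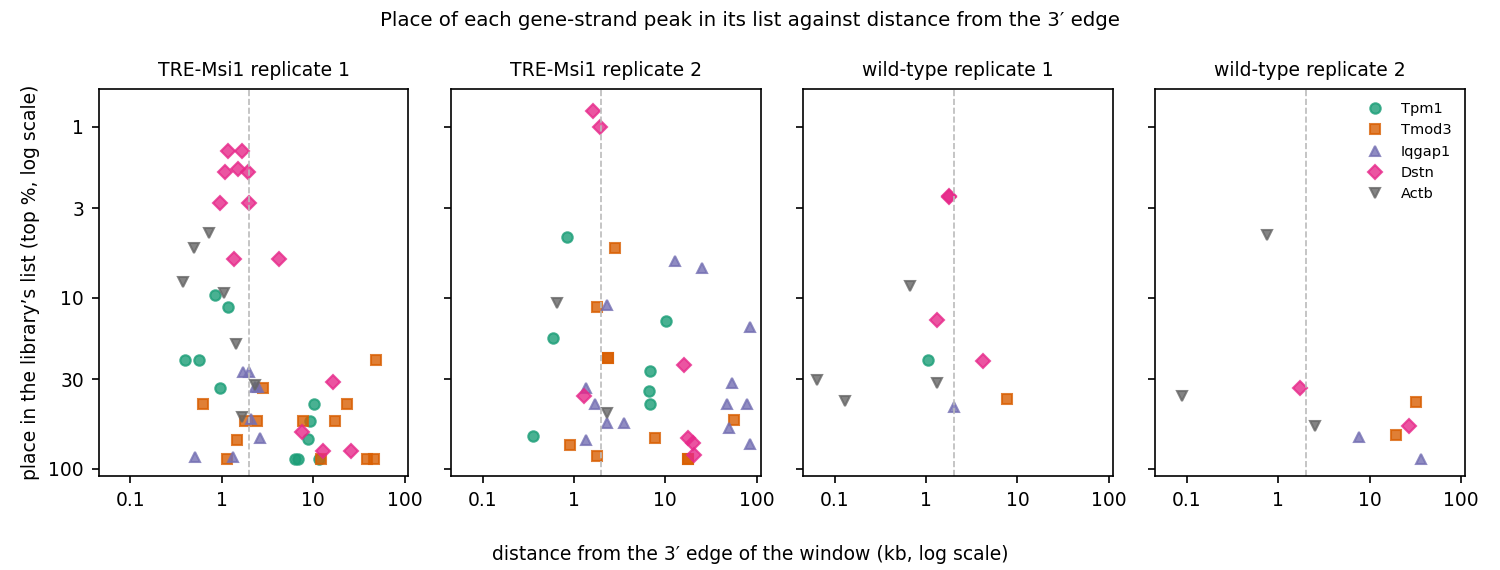
Place of each gene-strand peak in its library's list (top percent, log scale, best at the top) against distance from the 3′ edge of the window (kb, log scale), one panel per library and one symbol per gene; the dashed line marks 2 kb. Among the 5 genes, Dstn peaks within 2 kb rank highest in both TRE-Msi1 libraries. In TRE-Msi1 replicate 2 the Iqgap1 peaks at 12.7 and 25.1 kb also rank high. Places in wild-type replicate 1 are file order, since all its scores are 0.

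When peaks that overlap across libraries were joined, the 5 genes had 79 positions, of which 59 came from a single library, 17 from 2, 2 from 3 and 1 from all 4. Both TRE-Msi1 libraries contributed to 17 positions, in 15 of them by direct overlap and in 2 (Dstn and Actb) only through a wild-type peak between them. Of the 17, 14 had no wild-type peak and 14 lay within 3 kb of the 3′ edge. Wild-type peaks marked 15 positions, 4 of them with a TRE-Msi1 peak: 1 each in Tmod3, Iqgap1, Dstn and Actb. Counted as peaks, 3 of the 40 entries of TRE-Msi1 replicate 2 and 4 of the 52 of TRE-Msi1 replicate 1 overlapped a wild-type peak (7.50% and 7.69%), beside 5.19% and 1.24% of these whole lists. From the other side, 4 of 11 wild-type replicate 1 entries and 1 of 9 peaks of wild-type replicate 2 overlapped a TRE-Msi1 peak (36.4% and 11.1%), against 58.4% and 20.2% of those whole lists. With so few wild-type entries the Wilson intervals were wide, 15.2 to 64.6% and 1.99 to 43.5%. They cover only counting error, as if peaks were independent, so nothing is read from the contrast with the whole lists. With identical intervals counted once, 4 of 10 in wild-type replicate 1 overlapped a TRE-Msi1 peak.

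The windows stood far from other gene-strand peaks in 3 of the lists, but those lists are sparse. They held 0.889 to 1.07 peaks per Mb and strand in the wild-type libraries and 7.58 to 7.85 in TRE-Msi1 replicate 2. TRE-Msi1 replicate 1 held 50.0 on the plus and 20.6 on the minus strand. The distances below therefore do not show that the windows bound the genes. In TRE-Msi1 replicate 2 and the wild-type libraries the nearest gene-strand peak outside any window was at least 33.9 kb from its edge. In TRE-Msi1 replicate 1 the nearest lay 1.22 kb beyond the 5′ edge of the Dstn window and 4.12 kb beyond the 3′ edge of the Actb window. Widening each window by 1 kb added no gene-strand peak in any library. In RefSeq's annotation of GRCm38.p6, used here for names only, Iqgap1 overlaps the pseudogene Gm18392, and Dstn and Actb overlap the noncoding genes Gm33804 and Gm38733, so a peak in these windows could belong to one of those. Tpm1 and Tmod3 overlap no other annotated gene there.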

How the data were processed

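Msi1 CLIP-seq peak lists of 4 libraries were used, 2 TRE-Msi1 and 2 wild-type, grouped and numbered by the sample titles. Per the labels' protocols, cells were irradiated at 265 nm (2 pulses of 400 mJ per cm2) and RNA was recovered near 50 kD. Per the submitters' processing notes, Bowtie, HOMER and the build mm9 were used; no source used here gives their roles, versions or settings. The authors deposited 1 list per library, with an authors' score of unstated unit per peak, which served only to rank peaks within a list.

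The members and lists were chosen with earlier results of these data known. Window edges are those of the selection rule; all 5 genes matched RefSeq by symbol. All gene-strand peaks were counted, and single positions were named where both TRE-Msi1 libraries or both groups had a peak (in genes with more than 5, the 3 ranked highest in TRE-Msi1 replicate 2), plus wild-type peaks; further positions and ranks were picked after their values were seen. Overlap needed 1 bp on the same strand, and coordinates are 1-based. Group means used log2(count + 1). Tests were two-sided exact permutation tests over libraries. Average density was taken over the numbered chromosomes and X, with the highest peak end as chromosome length. The labels speak of 2 mice per group; p-values measure only the spread between these libraries. Counts were tested on simulated lists and differed from bedtools in 0 of 40 comparisons. Alternatives covered the window rule, repeated intervals, merging, score and list length, distance, left-out libraries and a replicate block; 3 kb as the distance was added after seeing the data. Other actin genes were not analysed here, since no mm9 annotation was used. The work was done with bedtools 2.31.1 and Python 3.11.15, through pandas 2.3.3, numpy 2.4.6, matplotlib 3.10.9 and scipy 1.17.1.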

Additional observations from a re-analysis of the deposited data

How the results depend on the processing

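The larger number of gene-strand peaks in TRE-Msi1 libraries (2.09 on the log2 scale) kept its direction under several settings. These were midpoints, wider windows, distinct intervals, merged peaks and the top 25% of each list. It ranged from 1.90 to 2.27 when single libraries were left out. All of these settings leave the lists unequal in length, and in wild-type replicate 1 the top 25% follows file order. With lists cut to the shortest length the difference was -0.42. There Tpm1 and Iqgap1 stood at 0, Dstn at 0.13, Tmod3 at -0.50 and Actb at -1.66. Actb ranged from -0.58 to 0.84 when single libraries were left out. The opposite-strand difference (1.73) was -0.50 with lists of the shortest length. The difference in the share of peaks near the 3′ edge (1.11 percentage points) was -11.8 over all 5 windows, ranged from -19.1 to 21.3 when single libraries were left out, and was 8.32 within 3 kb; it had no value in the top 25% of the lists, where wild-type replicate 2 had no peak in the 4 longer windows. The shared part of the TRE-Msi1 replicate 2 entries (50.0%) was 10.0% with a reciprocal overlap of 50%, 65.0% within 500 bp, 26.7% in the top 25% of the lists and 22.2% in the shortest lists. The reciprocal setting is strict, since the peaks of the TRE-Msi1 lists differ in width. With the replicate number as a block the differences were the same, 2.09, 1.11 and 1.73. An exact sign-flip test gave p = 1 for the share and p = 1 for the opposite strand, but with 2 blocks it cannot decide either. For the opposite strand its outcome was fixed in advance, since the replicate 2 libraries had equal counts, 1 peak each. Nothing in the labels says that the numbers pair animals. The number of peaks, the only depth these lists give, limits every statement on the wild-type libraries.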
